A study of Rattus norvegicus with 16 samples.

Results

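The genes described here encode the receptors for glutamate, acetylcholine of the nicotinic kind, glycine and serotonin in the dorsal root ganglion (DRG). The rule that chose them uses gene names, with earlier results of these data known when it was set, and takes every gene with a symbol of the Gria, Grik, Grin, Grid, Grm, Chrna, Chrnb, Chrnd, Glra, Glrb and Htr families on the array, whatever its values. This gave 56 genes, read by 84 probe sets (Affy_IDs), among the 14218 genes that the annotation of the array names. For the 20 genes with more than 1 probe set, the one with the highest mean over all arrays stands for the gene.

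The study asked how the DRG responds to spared nerve injury (SNI), in which branches of the sciatic nerve are cut and one is left intact, in adult rats and in young rats. All animals were Sprague-Dawley rats, with no genetic change named. Adult males were operated at 2 months of age and young rats at 10 days, and L4 and L5 DRG were collected 7 days later, when the young rats were 17 days old. Each array held RNA pooled from 6 ganglia of 3 adult rats or from 8 ganglia of 4 young rats, so that the spread between arrays is a spread between pools and not between animals.

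Of 16 arrays, 3 were adult sham (surgery with the nerve left whole), 3 were adult contralateral (the uninjured side of SNI rats) and 3 were adult SNI, with 3 young sham, 2 young contralateral and 2 young SNI arrays. The values are log2 GC-RMA intensities, which are background-corrected and normalized microarray signals. They rank arrays for 1 gene, and levels of different genes are not compared since each probe set binds its target with its own strength. The lower quartile of the arrays lay between 2.45 and 2.61, and a value above 4 in at least 2 arrays is used below as a working line for a readable signal.

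Glutamate is the fast transmitter of primary sensory neurons, and its ionotropic receptors (AMPA, kainate and NMDA) are channels built of 4 subunits, while the metabotropic receptors act through G proteins. Nicotinic, glycine and serotonin 5-HT3 receptors belong to another family of channels, the Cys-loop receptors, and the other serotonin receptors act through G proteins. Sensory neurons make many of these receptors in the DRG and carry them to their peripheral and central endings, where they tune transmitter release and excitability. Whole ganglia were measured, so that fewer cells of a type and less RNA per cell cannot be told apart.

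Several young arrays stood apart or went against their labels, which touches each result below that uses them. Young SNI replicate 2 held genes of central nervous tissue: the mean of 8 oligodendrocyte and central glia genes was 9.88 there and 3.98 to 4.77 in the other 15 arrays, and that of 8 central neuron genes was 8.02 against 3.16 to 3.86. Its mean of 8 nociceptor genes was 9.38, and that of the other arrays 10.62 to 11.36. The mean of 8 nerve injury genes (Atf3, Sprr1a, Gal, Npy and others) was 11.49 to 11.83 in adult SNI and 6.35 to 7.74 in both adult control groups. In the young it went against the labels. The arrays labelled young sham read 10.17, 11.47 and 8.37, those labelled young contralateral 9.85 and 6.33, and those labelled young SNI 8.64 and 10.68. Xist, an RNA of the inactive X chromosome, was at 2.32 to 2.57 in every adult array, at 2.36 in young sham replicate 2 and 2.35 in young contralateral replicate 1, and at 9.77 to 12.05 in the other 5 young arrays. The young SNI and young contralateral arrays of replicate 1 thus differ in it, with 11.84 and 2.35, although both carry the same number. The labels do not say whether arrays of equal number share rats. The sex of the young rats is not given in the sources used here, but Xist at 9.77 to 12.05 marks RNA of female rats in those 5 young arrays. The adults were male, so comparisons of adult with young arrays also compare pools that differ in sex.

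Readable signal was found in 22 of the 56 genes, and these were spread unevenly over the families. Of the AMPA subunits, Gria2, Gria3 and Gria4 were above 4 in at least 2 arrays and Gria1 was not, with 2.97 to 3.30 outside young SNI replicate 2. Among 5 kainate subunits Grik1, Grik2, Grik4 and Grik5 were above it, and Grik3 stayed between 1.79 and 1.89. Grin1, the subunit that every NMDA receptor needs, was the readable one of 7 NMDA genes, and its partners Grin2a, Grin2b, Grin2c, Grin2d, Grin3a and Grin3b did not exceed 2.87 outside young SNI replicate 2. Of the metabotropic receptors, Grm4, Grm7 and Grm8 of group III were above the line, and Grm2, Grm3, Grm5 and Grm6 did not exceed 2.87 in those 15 arrays. The delta receptor gene Grid1 had 1.83 to 1.92.

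Chrna3, Chrna6 and Chrnb2 were the readable ones of 11 neuronal nicotinic subunits. Chrnb3 crossed 4 in 1 array, with 4.03 in young contralateral replicate 2, and Chrna2, Chrna4, Chrna5, Chrna7, Chrna9, Chrna10 and Chrnb4 did not exceed 2.95 outside young SNI replicate 2. The muscle subunits Chrna1, Chrnb1 and Chrnd stayed at or under 2.81 in every array. Chrne, a further muscle subunit that the rule does not take in, was readable, with 5.68 to 7.72 outside young SNI replicate 2. The muscle actin gene Acta1 ranged from 7.82 in adult sham replicate 2 to 14.88 in young contralateral replicate 1. Chrne was 7.20 and 7.52 in those arrays, and a link between these genes was not tested. Of the glycine receptor genes, Glrb (the beta subunit, which anchors the receptor at synapses) was readable, and Glra1, Glra2 and Glra3 had at most 3.72 outside young SNI replicate 2. Both subunits of the 5-HT3 channel, Htr3a and Htr3b, were readable, as were Htr1d, Htr2c, Htr4, Htr5b and Htr7 of 12 G-protein-coupled serotonin receptor genes. The other 7 (Htr1a, Htr1b, Htr1f, Htr2a, Htr2b, Htr5a and Htr6) had at most 3.87. A probe set with a low value may bind its target poorly, so these values do not show that a receptor was absent.

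**Figure D1:**
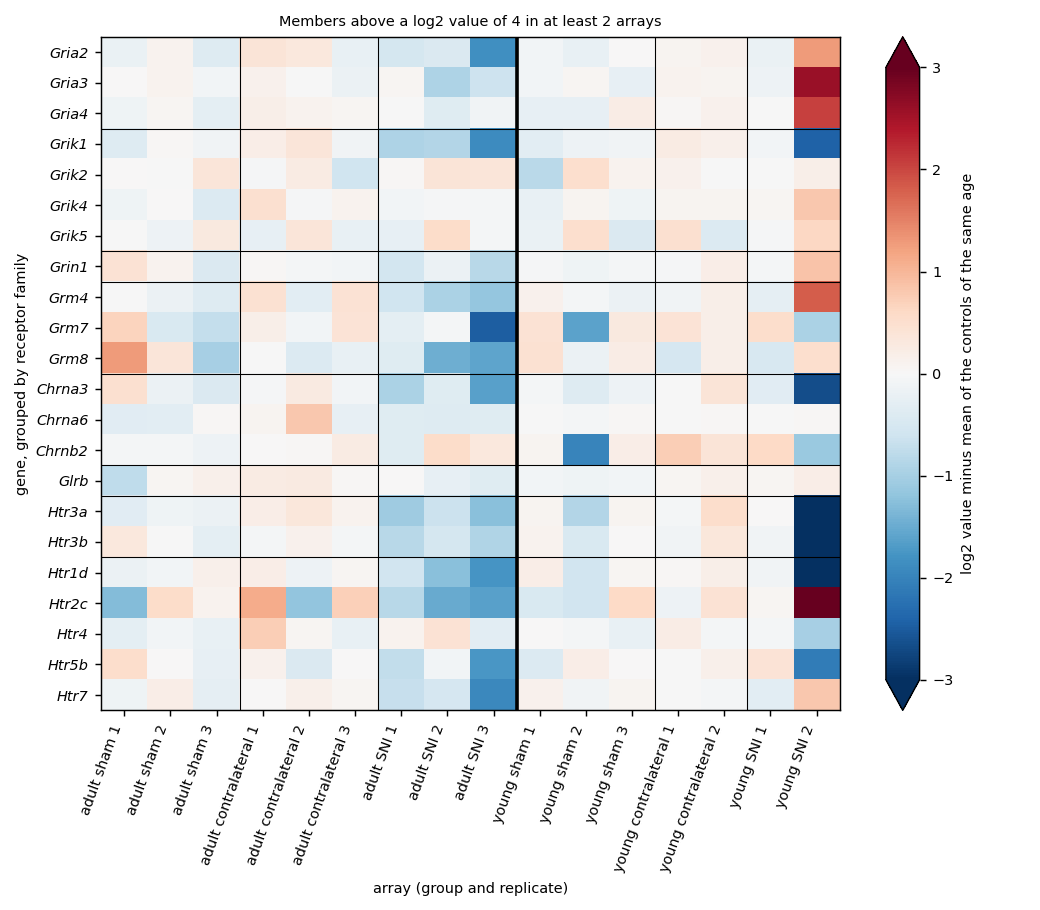
Each cell gives the log2 value of 1 gene (rows, by receptor family) in 1 array (columns), minus the mean of the control groups of the same age, for the 22 genes above 4 in at least 2 arrays. Blue (lower) prevails in the 3 adult SNI arrays, young SNI replicate 1 is pale, and young SNI replicate 2 holds the strongest colours in both directions, with the scale ending at 3 on either side.

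The first comparison asked which receptor genes differed between injured and uninjured adult ganglia. The adult SNI mean was below the mean of both controls for 50 of the 56 genes (89.3%, against 66.0% of all probe sets), many of them genes near the floor of the signal. Every adult SNI array was below every adult control array for 10 of the 56 genes, which is 17.9% against 2.58% of all 31042 probe sets: Gria2, Grik1, Grin3a, Grm4, Chrna6, Chrnb3, Htr1d, Htr3a, Htr3b and Htr7. Of these, Grin3a and Chrnb3 lay under the line of readable signal in all adult arrays. Chrna6 was apart only by the last digit, with 6.31 in the highest SNI array and 6.32 in the lowest control. The reverse, with every adult SNI array above every adult control array, held for 0 of the 56 genes and for 3.17% of all probe sets. The genes of the list are not independent of each other, and no test was made of the count.

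In the limma fit of all 16 arrays, however, 0 of the 56 genes passed an adjusted p of 0.05 in adult SNI against the mean of both adult controls, where 1.28% of all probe sets passed. At an unadjusted p under 0.05 there were 7 members, all lower, while 10.0% of all probe sets reached it. Against adult sham 0 passed (4 at the unadjusted level, with 0.48% of all probe sets passing), and against adult contralateral 0 passed (5 at the unadjusted level, with 1.03% passing). The model has 1 spread for all groups, and the distance between the 2 young SNI arrays enters it. Without that array 3 members passed against the mean of both controls (1.97% of all probe sets), namely Grik1, Grm4 and Htr1d, and 13 reached the unadjusted level, all lower. Grik1 and Grm4 passed against adult contralateral (1.38%), and 0 members passed against adult sham (0.722%), where 12 reached the unadjusted level. Leaving out young SNI replicate 1 in place of replicate 2 gave the same 3 and 2 names, since either removal takes the spread of that pair out of the fit. At the unadjusted level the share of all probe sets is given only for the mean of both controls with all arrays. The unadjusted counts of 4, 5, 12 and 13 have no such share beside them, and no excess is read from them. A block for the replicate number gives all arrays of 1 number a common shift, sham and young arrays included. It is thus not a model of SNI and contralateral pairs alone. With this block in the fit without young SNI replicate 2 the call of Grik1 held (adjusted p = 0.024). Grm4 and Htr1d missed the threshold there (adjusted p = 0.0534 and 0.0559). With the adult arrays fitted on their own, all 3 missed it and Htr3a passed. The values of the members follow by family, and each adjusted p is from limma over all probe sets.

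**Figure D2:**
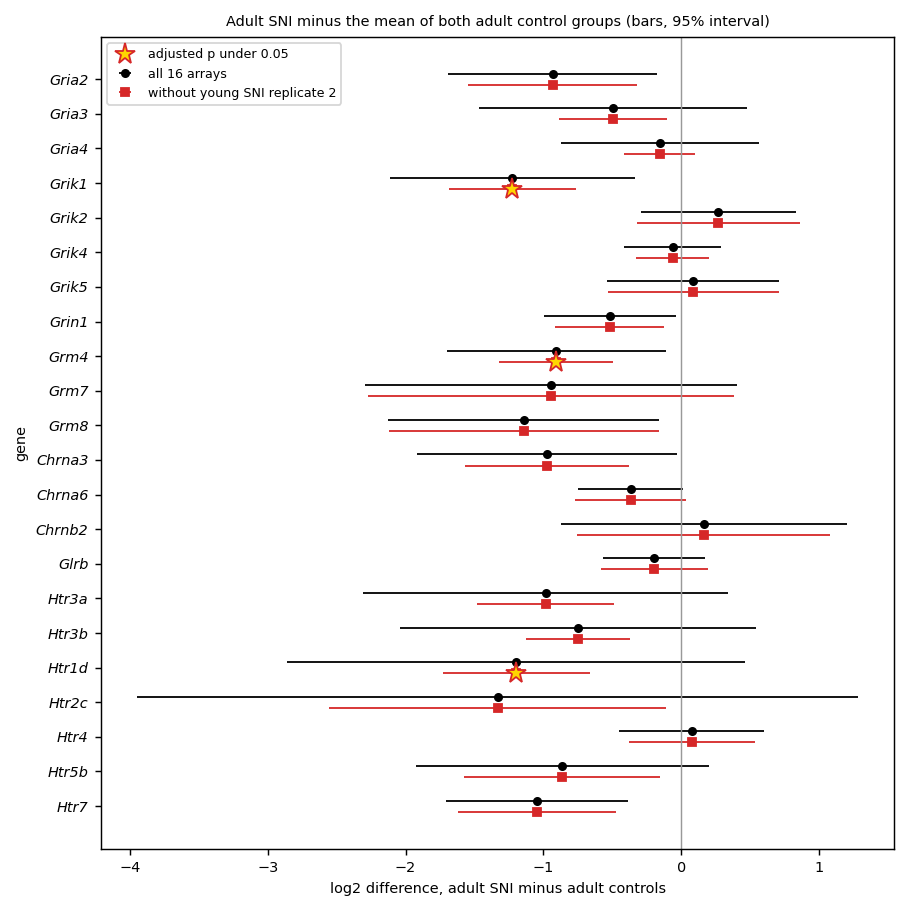
Log2 difference between adult SNI and the mean of both adult control groups (horizontal axis) for the 22 readable genes, with bars for the 95% interval. Black marks the fit of all 16 arrays and red the fit without young SNI replicate 2; stars mark an adjusted p under 0.05, which Grik1, Grm4 and Htr1d reached in the second fit at differences of -1.23, -0.91 and -1.20.

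Grik1 encodes GluK1, the kainate receptor subunit typical of small sensory neurons. Its log2 values were 9.60, 10.04 and 9.88 in adult sham, 10.20, 10.36 and 9.89 in adult contralateral, and 9.08, 9.11 and 8.12 in adult SNI. The highest SNI array was below the lowest control, and SNI replicate 3 was lowest. The difference from the mean of both controls was -1.23 (SE 0.40, adjusted p = 0.253) with all arrays and -1.23 (SE 0.21, adjusted p = 0.0165) without young SNI replicate 2. Against adult contralateral alone the second fit gave -1.38 (adjusted p = 0.0241), and against adult sham -1.07 (adjusted p = 0.0962). With the replicate block in that fit the adjusted p was 0.024 against the mean of both controls and 0.0355 against adult contralateral. With the adult arrays alone the call was lost, at 0.0685 and 0.0873.

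The other kainate subunits did not share this pattern. Grik2, which forms channels together with Grik4 or Grik5, ran from 6.93 to 7.88 in adult controls and from 7.57 to 7.92 in adult SNI. Grik4 ran from 5.52 to 6.42 and from 5.86 to 5.90, and Grik5 from 5.93 to 6.54 and from 5.94 to 6.74. All these ranges overlapped, and the test of each gene against the controls missed the threshold in both fits.

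Gria2 encodes GluA2, the AMPA subunit that keeps the channel nearly closed to calcium. It read 8.71, 9.00 and 8.52 in adult sham, 9.28, 9.22 and 8.69 in adult contralateral and 8.38, 8.46 and 7.07 in adult SNI. The groups did not overlap, by a narrow margin in SNI replicates 1 and 2. The difference was -0.93 (SE 0.28, adjusted p = 0.152 without young SNI replicate 2, and 0.334 with all arrays). A further probe set of Gria2 gave -1.03 (adjusted p = 0.0884 without that array). Gria3 differed by -0.50 (adjusted p = 0.25) and Gria4 by -0.16 (adjusted p = 0.712) without young SNI replicate 2, and both overlapped with the controls.

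Grin1 read 8.68, 8.36 and 7.83 in adult sham, 8.30, 8.20 and 8.17 in adult contralateral and 7.70, 8.09 and 7.42 in adult SNI. Sham replicate 3 lay inside the range of the SNI arrays. The difference was -0.52 (adjusted p = 0.43 with all arrays and 0.226 without young SNI replicate 2).

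Grm4, Grm7 and Grm8 encode the group III receptors, which sit at nerve endings and lower transmitter release. Grm4 was near the line of readable signal, with 4.04, 3.86 and 3.66 in adult sham, 4.51, 3.73 and 4.48 in adult contralateral and 3.44, 3.10 and 2.88 in adult SNI. All SNI arrays were below all controls. The difference was -0.91 (SE 0.36, adjusted p = 0.389) with all arrays and -0.91 (SE 0.19, adjusted p = 0.0389) without young SNI replicate 2. The replicate block in that fit ended the call (adjusted p = 0.0534, and 0.059 against adult contralateral), as did fitting the adult arrays alone (adjusted p = 0.111 and 0.107). Since 3 of the 6 adult control values and all SNI values are under 4, the size of this difference is uncertain.

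Grm8 varied widely among the adult sham arrays, with 10.49, 9.59 and 8.22. Its adult contralateral arrays had 9.21, 8.81 and 9.01 and its adult SNI arrays 8.85, 7.75 and 7.64, so that SNI replicate 1 lay among the controls. The difference was -1.14 (SE 0.45, adjusted p = 0.376), and 0.304 without young SNI replicate 2. Its 2 further probe sets gave -0.77 and -0.26, neither past the threshold. Grm7 was split within the SNI group, with 5.55, 5.80 and 3.37 against 5.14 to 6.51 in the controls.

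Of the nicotinic subunits, Chrna3 (the alpha subunit of ganglionic receptors) read 9.40, 8.75 and 8.48 in adult sham, 8.88, 9.18 and 8.84 in adult contralateral and 7.98, 8.57 and 7.29 in adult SNI. SNI replicate 2 was above sham replicate 3, so the groups overlapped. The difference was -0.98 (adjusted p = 0.474 with all arrays and 0.119 without young SNI replicate 2). Chrna6, an alpha subunit whose gene lies next to Chrnb3, was at 6.31, 6.28 and 6.31 in adult SNI. It had 6.32, 6.35 and 6.70 in adult sham and 6.74, 7.47 and 6.43 in adult contralateral. The SNI values sat in the same narrow band as all 7 young arrays (6.23 to 6.32), just under the lowest adult control. Whether the probe set reads a signal within that band was not tested. The difference of -0.37 missed the threshold (adjusted p = 0.533 with all arrays and 0.483 without young SNI replicate 2), although the groups did not overlap. Chrnb2 ran from 4.57 to 4.96 in the controls and from 4.35 to 5.27 in SNI.

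The 5-HT3 channel is the one serotonin receptor that is itself an ion channel, and its genes Htr3a and Htr3b are next to each other on chromosome 8. Htr3a read 9.19, 9.41 and 9.36 in adult sham, 9.74, 9.87 and 9.64 in adult contralateral and 8.48, 8.88 and 8.29 in adult SNI. The groups were well apart, and the contralateral arrays were above the sham arrays. The difference was -0.99 (SE 0.60, adjusted p = 0.712) with all arrays, and -0.99 (SE 0.22, adjusted p = 0.0555) without young SNI replicate 2. With the adult arrays fitted on their own it passed, at an adjusted p of 0.0146 against the mean of both controls and 0.0132 against adult contralateral, but not against adult sham (-0.77, adjusted p = 0.0991). The replicate block with the adult arrays alone gave 0.0174, 0.0182 and 0.0675 in the same order.

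Htr3b read 11.34, 11.03 and 10.73 in adult sham, 10.97, 11.16 and 10.97 in adult contralateral and 10.20, 10.51 and 10.14 in adult SNI. Here too the groups did not overlap. The difference was -0.75 (SE 0.17, adjusted p = 0.0549) without young SNI replicate 2, and the adjusted p was 0.788 with all arrays. A further probe set of Htr3b, with 8.98 to 9.36 in the controls and 7.78 to 8.35 in SNI, gave -1.06 and passed without that array (adjusted p = 0.0457). With the replicate block in that fit it missed the threshold. With the adult arrays alone the further probe set passed (limma adjusted p = 0.0177). The one that stands for the gene missed the threshold there (limma adjusted p = 0.0621).

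Htr1d encodes the G-protein-coupled 5-HT1D receptor, a target of the triptan drugs that inhibits release from sensory endings. It read 7.17, 7.27 and 7.51 in adult sham, 7.54, 7.20 and 7.42 in adult contralateral and 6.77, 6.10 and 5.59 in adult SNI. Every SNI array was lower, and the SNI arrays differed among themselves more than the controls did. The difference was -1.20 (SE 0.76, adjusted p = 0.727) with all arrays and -1.20 (SE 0.24, adjusted p = 0.0347) without young SNI replicate 2. The call was lost with the replicate block in that fit (adjusted p = 0.0559) and with the adult arrays alone (adjusted p = 0.0698).

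Htr7, which encodes a receptor that raises cyclic AMP, read 5.73, 6.06 and 5.59 in adult sham, 5.89, 6.03 and 5.92 in adult contralateral and 5.17, 5.37 and 3.93 in adult SNI. Its groups were apart, with SNI replicate 3 far below the other SNI arrays. It had the smallest p of the readable members with all arrays, at a difference of -1.05 (SE 0.30, adjusted p = 0.165), and an adjusted p of 0.0811 without young SNI replicate 2. Htr5b (-0.86, adjusted p = 0.275) and Htr2c (-1.33, adjusted p = 0.352) were lower without passing in that fit, and their groups overlapped. Htr4 lay between 4.06 and 5.09 in the controls and between 4.04 and 4.77 in SNI.

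**Figure D3:**
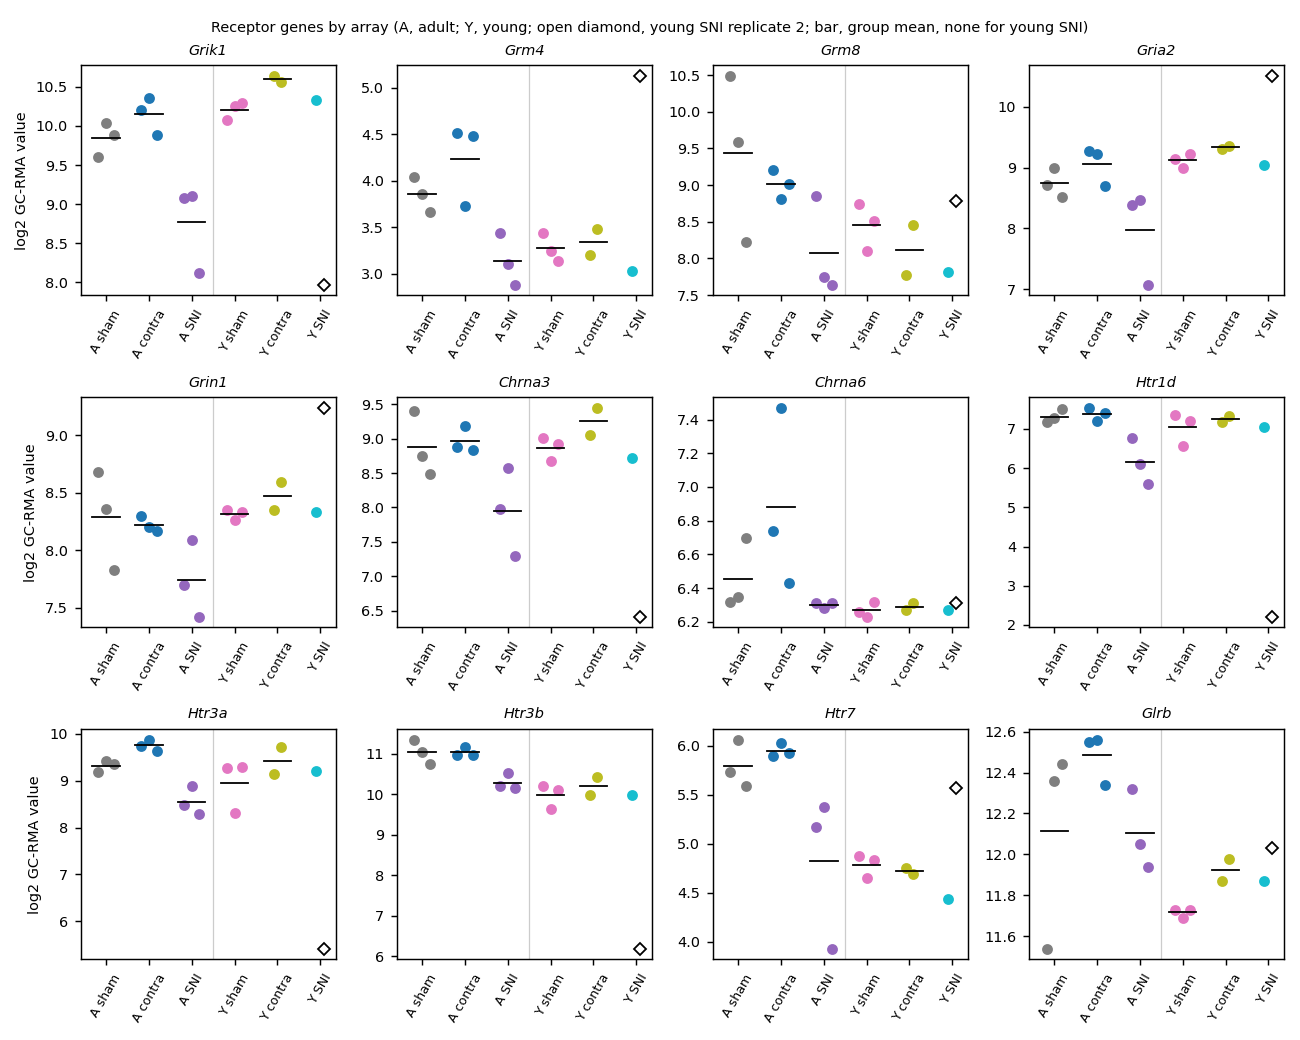
Log2 values (vertical axes, each with its own range) of 12 receptor genes in every array by group, with 1 point for each array and a bar for the group mean, except in young SNI, where no mean is drawn. The adult SNI points of Grik1, Grm4, Htr1d, Htr3a, Htr3b and Htr7 lie below all adult control points, and the open diamond of young SNI replicate 2 lies far from the other young arrays in most panels.

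Glrb, the readable glycine receptor gene, read 11.54, 12.36 and 12.44 in adult sham, 12.55, 12.56 and 12.34 in adult contralateral and 12.32, 12.05 and 11.94 in adult SNI. Sham replicate 1 was the lowest adult array, so the groups overlapped, and the difference was -0.20 (adjusted p = 0.801). A further readable probe set of Glrb had 10.35 to 10.85 in the controls and 10.16, 10.13 and 9.87 in SNI, with no overlap. It gave -0.51 (adjusted p = 0.364 without young SNI replicate 2, and 0.049 with the adult arrays alone). Its neighbour on chromosome 2 is Gria2.

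Adult SNI replicate 3 set the low end for many of these genes. It was the lowest of the 9 adult arrays for 15 of the 56 members (26.8%), against 12.3% of all probe sets. Leaving it out changed the difference of Gria2 from -0.93 to -0.48 and that of Htr7 from -1.05 to -0.60. The mean of the nociceptor genes moved in the same direction as the receptors. It was 10.62 to 10.98 in adult SNI, with 10.62 in replicate 3, and 11.03 to 11.29 in the adult controls. Single genes of that list differed. Scn10a had 10.22 to 10.69 in SNI and 10.83 to 11.28 in the controls, while P2rx3 had 11.53 to 12.01 and 11.45 to 11.79. The mean of 9 general sensory neuron genes overlapped, with 12.05 to 12.26 in SNI and 12.02 to 12.51 in the controls. The mean of 8 macrophage genes was 5.70 to 6.07 in SNI and 4.11 to 4.92 in the controls. The part of these shifts in the receptor values was not tested.

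The promoters of the genes that passed a test of injury or of age, and have an entry in the RefSeq table of the GRCr8 build, are shown because these genes were low together in the same adult SNI arrays. Each runs from 250 bases before to 50 bases after the annotated start, 5′ to 3′ on the strand of the gene, and capitals mark matches to GGGCGG (the GC box), TGACGTCA (the cAMP response element) or TGANTCA (the AP-1 site) on either strand. No motif contains another.
Grik1, chr11:41056454-41056753, minus strand: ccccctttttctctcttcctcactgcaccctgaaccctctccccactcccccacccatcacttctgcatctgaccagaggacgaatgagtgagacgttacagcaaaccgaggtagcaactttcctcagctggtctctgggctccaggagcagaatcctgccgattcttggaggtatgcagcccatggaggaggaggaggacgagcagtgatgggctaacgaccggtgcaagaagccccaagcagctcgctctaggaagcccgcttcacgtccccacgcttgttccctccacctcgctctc
Htr1d, chr5:153939485-153939784, plus strand: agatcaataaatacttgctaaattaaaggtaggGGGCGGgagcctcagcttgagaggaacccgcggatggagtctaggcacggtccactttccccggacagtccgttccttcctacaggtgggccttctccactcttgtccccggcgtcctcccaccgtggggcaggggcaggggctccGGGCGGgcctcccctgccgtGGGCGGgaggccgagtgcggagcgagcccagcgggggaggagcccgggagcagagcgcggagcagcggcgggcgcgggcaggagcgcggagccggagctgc
Htr3b, chr8:58204890-58205189, minus strand: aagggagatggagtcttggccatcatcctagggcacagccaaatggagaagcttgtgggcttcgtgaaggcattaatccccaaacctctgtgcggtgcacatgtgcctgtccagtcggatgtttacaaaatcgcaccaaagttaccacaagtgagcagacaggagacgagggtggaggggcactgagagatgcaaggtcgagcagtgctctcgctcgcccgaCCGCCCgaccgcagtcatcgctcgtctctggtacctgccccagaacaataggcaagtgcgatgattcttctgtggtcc
Htr7, chr1:243172999-243173298, minus strand: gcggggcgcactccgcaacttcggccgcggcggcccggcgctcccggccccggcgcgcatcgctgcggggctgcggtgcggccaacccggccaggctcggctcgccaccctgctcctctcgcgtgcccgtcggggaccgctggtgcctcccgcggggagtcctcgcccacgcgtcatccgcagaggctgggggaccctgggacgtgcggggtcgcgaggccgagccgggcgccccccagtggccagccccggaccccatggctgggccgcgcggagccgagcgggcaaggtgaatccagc

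Htr1d has 3 GC boxes and Htr3b 1, while Grik1 and Htr7 have 0. A GC box stands in 33.1% of 33469 promoters of this length and in 18 of 38 member promoters. The cAMP response element was in 0 of the 38 (1.83% of all promoters) and the AP-1 site in 0 of the 38 (7.33%), as the exact letters in this window. The E-box CANNTG, which is not marked in capitals, occurs 2 times in Grik1, 1 time in Htr1d, 5 times in Htr3b and not in Htr7, and stands in 28 of the 38 member promoters and in 72.1% of all promoters. The GC content was 58.7% in Grik1, 69.3% in Htr1d, 56.0% in Htr3b and 79.7% in Htr7, with a median of 51.7% over all promoters. Grm4 and Htr3a have no entry in this table.

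Partner genes of the receptors were read from lists of scaffolds, auxiliary subunits, transporters and enzymes. Homer3, a scaffold that ties group I metabotropic receptors to calcium stores, rose in adult SNI and was the one gene of these lists that passed there. It read 6.16, 6.15 and 6.22 in adult sham, 5.91, 5.71 and 5.61 in adult contralateral and 6.98, 7.61 and 7.09 in adult SNI, with every SNI array above every control. The difference from the mean of both controls was 1.27 (SE 0.19, adjusted p = 0.00754 with all arrays, and 0.00208 without young SNI replicate 2). Of the 14 scaffold genes measured, 1 rose and 0 fell. In the lists of 12 AMPA and kainate auxiliary subunits, 8 genes of glutamate release and uptake, 6 of glycine handling, 16 of acetylcholine handling and 4 of serotonin synthesis and uptake, 0 passed in adult SNI against the mean of both controls in either fit.

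The adult contralateral and adult sham groups served as controls for each other. Of the 56 receptor genes, 0 passed between them in limma, 0 reached an unadjusted p under 0.05, and 0.0% of all probe sets passed. Without young SNI replicate 2, 1 reached the unadjusted level.

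The next comparison asked which receptor genes differed in young SNI. The 2 young SNI arrays gave different answers for most readable genes, so no group mean is used for a direction. Replicate 1 lay within the range of the 5 young control arrays for 52 of the 56 genes (92.9%, against 88.7% of all probe sets). Those outside it were Grm4 and Htr7, below, and Grm7 and Htr5b, above. Replicate 2 lay above all 15 other arrays by more than 1 for 14 genes (25.0%, against 2.37% of all probe sets) and below them by more than 1 for 3 genes (5.4%, against 1.74%).

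Many of the genes high in replicate 2 are known from central synapses, but not every receptor gene of the brain was high there. Chrnb2, of the common brain nicotinic receptor, had 4.32 there and 6.03 in replicate 1. Chrna7 and Grm2 stayed at 1.77 and 2.09 in replicate 2. Grin2a, Grin2b, Grin2c, Grin2d and Grin3a, the NMDA subunits that were low elsewhere, had 6.87, 3.40, 5.34, 3.37 and 5.19 there. Glra1 and Glra2, the glycine receptor alpha subunits, had 6.32 and 7.86, and the metabotropic receptors Grm3 and Grm5 had 6.75 and 6.58. Htr2c, abundant in choroid plexus and central neurons, had 11.20 and at most 5.88 in any other array. All 4 AMPA genes were among them. Gria1 had 5.58 and Gria2 10.51. Gria3 had 9.93 against 7.11 to 7.45 in the controls and 7.19 in replicate 1, and Gria4 had 9.12 against 6.84 to 7.30 in the controls and 7.06 in replicate 1. The array also held the central genes Mobp at 14.13, against at most 3.78 elsewhere, and Slc12a5 at 11.79, against at most 1.89. Not all genes of the central glia and central neuron lists were high in it. Slc1a2 and Cplx2, at 2.57 and 8.44, were within the range of the other arrays, and Olig2 had 2.65.

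The genes low in replicate 2 are known from sensory neurons. Htr1d had 2.21 there and 7.05 in replicate 1, Htr3a 5.42 and 9.21, and Htr3b 6.19 and 9.98. Grik1 had 7.97 and 10.33, and Chrna3 6.41 and 8.72. The young controls had 6.57 to 7.35 in Htr1d, 8.31 to 9.71 in Htr3a, 9.64 to 10.43 in Htr3b, 10.08 to 10.64 in Grik1 and 8.67 to 9.45 in Chrna3. In each of these 5 genes replicate 1 was within that range and replicate 2 below it. The adult SNI arrays were also low in Grik1, Htr1d, Htr3a and Htr3b, but without the high values of the central genes.

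**Figure D4:**
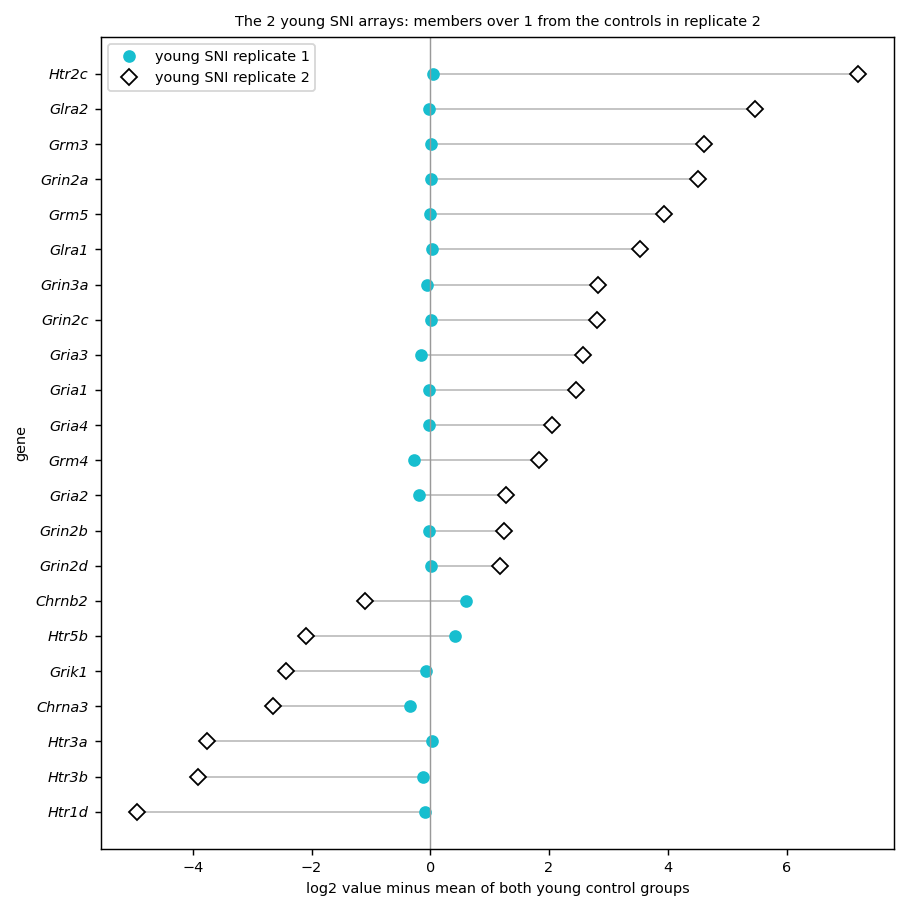
Log2 value minus the mean of both young control groups (horizontal axis) in each of the 2 young SNI arrays, for the genes in which replicate 2 lay more than 1 from that mean. The filled points of replicate 1 run from -0.34 in Chrna3 to 0.42 in Htr5b and 0.61 in Chrnb2, while the open diamonds of replicate 2 run from Htr1d, at -4.94, to Htr2c, at 7.21.

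In the limma fit 0 of the 56 genes passed in young SNI against the mean of both young controls, where 0.0226% of all probe sets passed, and 22 members reached an unadjusted p under 0.05, as 7.86% of all probe sets did. Against young sham 0 passed (18 unadjusted, 0.0161% of all probe sets passing) and against young contralateral 0 passed (18 unadjusted, 0.00966%). Without replicate 2 the group is 1 array, assumed to vary like the others, and 0 members passed against the mean of both controls (0.171% of all probe sets), with 0 at the unadjusted level. Against young sham 0 passed as well (0 unadjusted, 0.164% of all probe sets passing), and against young contralateral 0 passed (2 unadjusted, 0.142%). Between young contralateral and young sham 0 passed (3 unadjusted), where 0.0% of all probe sets passed the adjusted threshold.

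The young controls themselves were uneven. The array labelled young sham replicate 2, in which the nerve injury genes were highest, was the lowest of the 5 young control arrays for 17 of the 56 receptor genes (30.4%, against 16.4% of all probe sets). These include Htr1d at 6.57 (the other young controls 7.18 to 7.35), Htr3a at 8.31 (9.14 to 9.71), Htr3b at 9.64 (9.98 to 10.43), Grm7 at 3.85 (5.64 to 5.90) and Chrnb2 at 3.44 (5.50 to 6.17). Grik1 did not follow, with 10.25 in that array and 10.08 to 10.64 in the others. These are values of 1 array, and no test was made.

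Whether adult and young ganglia differed in their response was tested by subtracting the young SNI difference from the adult one, each taken against the mean of both controls. With all arrays 0 members passed (14 unadjusted), and 0.0966% of all probe sets did. Without young SNI replicate 2, 0 members passed (3 unadjusted), and 0.287% of all probe sets did. In that fit Grik1 had -1.15 with a 95% interval from -2.00 to -0.30 (adjusted p = 0.624), Htr1d -1.10 with -2.09 to -0.12 (adjusted p = 0.915) and Htr3a -1.01 with -1.92 to -0.09 (adjusted p = 0.935). The adult differences given above are therefore not shown to differ from those of young rats. Between adult SNI and young SNI directly 0 members passed (17 unadjusted, 2.64% of all probe sets), and 0 without replicate 2 (4 unadjusted, 0.783%).

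The last comparison set the adult controls against the young controls, since receptor genes may change as the ganglion matures. With all arrays 1 of the 56 genes passed, where 4.36% of all probe sets did, and 6 reached the unadjusted level, as 17.8% of all probe sets did. Every adult control array was above every young control array for 3 members (5.4%, against 3.54% of all probe sets), namely Grm4, Htr3b and Htr7, and below for 0 (3.05%). Those 3 also passed in limma without young SNI replicate 2, a fit in which 6.63% of all probe sets passed.

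Htr7 was the one that passed with all arrays. It had 5.59 to 6.06 in the 6 adult control arrays and 4.87, 4.65, 4.83, 4.75 and 4.69 in the young controls (sham first). The adult and young ranges were well apart. The difference was 1.12 (SE 0.26, adjusted p = 0.0365), or 1.12 (SE 0.23, adjusted p = 0.0175) without young SNI replicate 2. The call was lost on leaving out any 1 of adult sham replicates 1 and 2, the adult contralateral arrays or the young control arrays, with adjusted p up to 0.134 and differences from 1.05 to 1.14. The adult SNI arrays, at 3.93 to 5.37, reached down to the young level. The 2 further probe sets of Htr7 lay under the line of readable signal, with at most 2.69 and 2.18. With all arrays they differed by 0.069 and 0.036 between adult and young controls. Between adult SNI and the adult controls they differed by -0.068 and -0.027.

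Htr3b had 10.73 to 11.34 in adult controls, and 10.21, 9.64 and 10.11 in young sham with 9.98 and 10.43 in young contralateral. All adult controls were higher. The difference was 0.94, with an adjusted p of 0.375 with all arrays and 0.00629 without young SNI replicate 2, and its further probe set gave 1.12 (adjusted p = 0.01 without that array). Its neighbour Htr3a was not apart, with 9.19 to 9.87 in adult and 8.31 to 9.71 in young controls. Grm4 had 3.66 to 4.51 in adult controls, and 3.44, 3.24 and 3.14 in young sham with 3.20 and 3.48 in young contralateral, all young values being under 4. Its difference was 0.74 (adjusted p = 0.24 with all arrays and 0.0248 without young SNI replicate 2).

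Of the other members, Glrb differed by 0.48 (adjusted p = 0.0972 with all arrays), with 11.69 to 11.98 in young controls and sham replicate 1 of the adults, at 11.54, below all of them. On leaving out that sham array it passed, with 0.62 (adjusted p = 0.00375). Grm8 differed by 0.94 (adjusted p = 0.227), with 8.74, 8.10, 8.51, 7.78 and 8.45 in the young controls, and overlapped with the adults. Without adult sham replicate 3 it passed, with 1.24 (adjusted p = 0.0448), but its 2 further probe sets differed by 0.014 and -0.009 with all arrays. Chrna6 differed by 0.39 (adjusted p = 0.195). Chrnb2, the beta subunit of the common brain receptor, had 5.50, 3.44, 5.61, 6.17 and 5.82 in the young controls against 4.57 to 4.96 in adult controls, so that every young control but sham replicate 2 was above the adults. Its difference was -0.70 (adjusted p = 0.321 without young SNI replicate 2). Grik5 had 6.40, 7.12, 6.18, 7.10 and 6.20 in the young controls, overlapped with the adults and differed by -0.43. Glrb, Grm8, Chrna6, Chrnb2 and Grik5 missed the threshold both with all arrays and without young SNI replicate 2. Of the partner genes Grip1, a scaffold that binds GluA2, differed by -0.66 (adjusted p = 0.00526) and so was lower in adult controls, as was Bche, an enzyme that breaks down choline esters, with -0.70 (adjusted p = 0.0265). Without young SNI replicate 2 both passed again, and 3 genes of glutamate uptake and handling passed as well. Slc1a3, the glial glutamate transporter GLAST, was higher in adult controls by 1.15 (adjusted p = 0.00682). Slc7a11, the cystine and glutamate exchanger, differed by -1.77 (adjusted p = 0.0285) and Glul, which makes glutamine from glutamate, by -0.77 (adjusted p = 0.0408). For Slc7a11 the ranges overlapped, with 3.32 to 4.96 in adult controls and 6.75, 6.57, 5.97, 6.59 and 4.28 in young controls. The last of these is young contralateral replicate 2.

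Injury genes and Xist differ between the young control arrays, so the values of Htr7, Htr3b and Grm4 are given by both. In these genes every adult control was above every young control. Any subset of the young controls thus lies below the adults, so the subsets cannot tell whether either has a part. In the young arrays with Xist under 3, young sham replicate 2 and young contralateral replicate 1, Htr7 was 4.65 and 4.75, Htr3b 9.64 and 9.98, and Grm4 3.24 and 3.20. In those with Sprr1a under 4, young sham replicate 3 and young contralateral replicate 2, Htr7 was 4.83 and 4.69, Htr3b 10.11 and 10.43, and Grm4 3.14 and 3.48. With the 3 other young controls and young SNI replicate 2 left out, the differences were 1.11 for Htr7, 0.76 for Htr3b and 0.74 for Grm4, with adjusted p of 0.176, 0.0621 and 0.19 from limma with 1 array in each young group. The mean of 5 myelinating Schwann cell genes was 11.37 to 12.44 in adult and 12.57 to 13.09 in young controls, and the nociceptor mean overlapped, with 11.03 to 11.29 and 11.08 to 11.36. The part of these in the age differences was not tested.

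**Figure D5:**
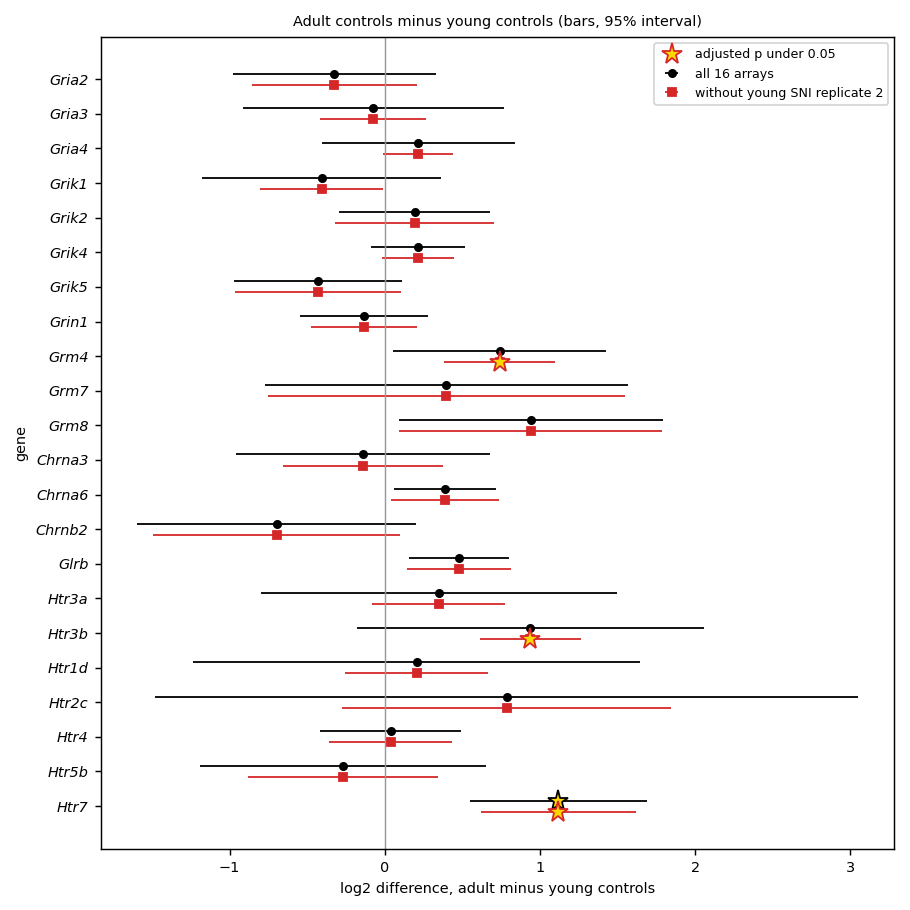
Log2 difference between adult controls and young controls (horizontal axis) for the 22 readable genes, with bars for the 95% interval, from all 16 arrays (black) and without young SNI replicate 2 (red). Stars mark an adjusted p under 0.05: Htr7 has one in both fits, at 1.12, and Grm4 and Htr3b have one in the second fit, at 0.74 and 0.94.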

How the data were processed

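Messenger RNA of L4 and L5 DRG was measured on Affymetrix rat genome arrays. The authors removed 2 arrays as outliers and summarised the rest by GC-RMA, and the deposited values are log2 intensities with 2 decimals. No tool version of the authors is given in the sources read. GC-RMA sets low probe sets close to a floor, so differences near it are understated. No reads were counted, and the number of pools limits the precision.

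All 31042 probe sets other than 57 controls were fitted with limma 3.58.1 in R 4.3.3, as 6 group means, with variances moderated by empirical Bayes (1.24 prior and 10 residual degrees of freedom). The p of each of 11 comparisons was adjusted by Benjamini-Hochberg over all probe sets, with 0.05 as the threshold. Genes were named by the platform annotation for the 20826 probe sets with 1 symbol, and all 56 members were found in RefSeq by gene ID with the same symbol. Members, partner lists and marker lists were chosen with earlier results of these data known. Members are named with values if they pass, if they are among the 8 with the smallest p in adult SNI, young SNI or adult controls against their controls, or if young SNI replicate 2 lies over 1 away from all other arrays.

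Adult SNI and adult contralateral arrays carry the same replicate numbers, but the labels do not say that equal numbers share rats. Their deviations from the group means correlated at 0.449, 0.445 and 0.362 for replicates 1, 2 and 3. Those of adult SNI and adult sham correlated at -0.041, 0.132 and 0.200. The fit was tested on simulated data over 31042 probe sets. For adult SNI against the mean of both controls, 69 of 100 probe sets changed by a log2 of 1 were recovered. Of 100 changed by 2, 92 were recovered, and 18 unchanged ones were called. The changed ones were drawn from all probe sets, those near the floor included, with 1 spread for each probe set in every array. Recovery among the readable genes alone was not tested. Alternatives were each age fitted on its own, an intensity trend, a robust prior, array weights, a filter on low values (18540 probe sets above 4 in 2 or more arrays), quantile normalization, a replicate block, adjustment over all comparisons, the probe set with the smallest p, and leaving out each array. Python 3.11.15 with pandas 2.3.3, numpy 2.4.6 and matplotlib 3.10.9 made tables and figures.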

Additional observations from a re-analysis of the deposited data

How the results depend on the processing

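The results depended mainly on the young SNI pair. The number of members called against the mean of both adult controls was 0 to 3 on leaving out 1 array (main 0), against adult contralateral 0 to 2 and against adult sham 0 to 0, and the nonzero counts came without either young SNI array. Fitting each age on its own, array weights, and 2 alternatives chosen after seeing the data (a replicate block with the adult arrays alone, and one with young SNI replicate 2 left out) each called 1 member against the mean of both controls and 1 against adult contralateral, Htr3a where only adult arrays were fitted and Grik1 in the others. With the replicate block over all 16 arrays 0 were called there, as without it. In the fit without young SNI replicate 2 the block ended the calls of Grm4 and Htr1d (adjusted p = 0.0534 and 0.0559 against the mean of both controls) and kept that of Grik1. The block ties arrays of all groups by number, so this change cannot be read as an effect of pairing alone. With the block over all arrays Grik1 against adult contralateral was -1.38 (limma adjusted p = 0.345). Adult contralateral against adult sham gave 0 to 0 and young contralateral against young sham 0 to 1. Counts were 0 to 22 for young SNI against the mean of both controls, 0 to 22 against young sham, 0 to 21 against young contralateral, 0 to 22 for the difference in response and 0 to 23 for adult SNI against young SNI, with the high values without young SNI replicate 1, which leaves replicate 2 alone. Adult SNI against young SNI called 1 with an intensity trend (Gria2) and 2 with the filter (Gria2 and Grin1).

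Adult against young controls called 0 to 3 on leaving out 1 array (main 1). Array weights called 2 (Glrb and Htr7), adjustment over all comparisons 0, the replicate block 1 (Htr7), the block without young SNI replicate 2 gave 3 (Grm4, Htr3b and Htr7), and leaving out that array and the 3 young controls with Sprr1a over 4 gave 2 (Chrna7 at -0.55 and Htr2a at -0.44, both under 4 in every array), with Htr7 at 1.11.

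Of 832 values of 32 differences in 17 members under the alternatives, 777 kept their direction and side of the threshold, 27 newly passed, 12 lost the threshold and 16 changed sign. Against the mean of both young controls, without young SNI replicate 2 and with the replicate block in addition, Htr3a came to 0.022 and 0.059, Gria4 to -0.017 and -0.022, and Gria3 to -0.16 and -0.28. On leaving out 1 array these ran from -3.77 to 0.022 for Htr3a, -0.017 to 2.04 for Gria4 and -0.16 to 2.58 for Gria3. The adult minus the young response came to -0.63 and -0.59 for Chrna3 in those fits (-0.63 to 1.68 on leaving out 1 array) and to -1.18 for Grik1 with the block. For Grik1 it was 0.03 with all arrays, -0.012 with array weights and -0.073 with quantile normalization, and ran from -1.15 to 1.21 on leaving out 1 array. The cause of these changes was not tested beyond the arrays left out. The calls made without young SNI replicate 2 were not refitted with a further array left out. Values near the floor of GC-RMA, as in Grm4, limit what can be read from a difference.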
